A study of Mus musculus with 18 samples.

Results

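The 9 genes described here are known from the mesothelium, the sheet of flat cells that covers the abdominal organs and the fat pads hanging in the body cavity. They were found in the table by gene symbol, from a list drawn up with earlier results of these data known: Msln, Upk3b, Upk1b, Lrrn4, Bnc1 and Muc16, called the mesothelial genes below, and the keratins Krt8, Krt18 and Krt19, which mesothelium shares with every simple epithelium. All 9 symbols were found among the 54347 gene rows of the table. Polyadenylated RNA had been sequenced from interscapular brown (iBAT), inguinal white (iWAT) and epididymal white (eWAT) adipose tissue of 6 mice of the C57BL/6N-ΔGm15551 line at 12 weeks of age. Of these, 3 were wild type (wt) and 3 were knockout (ko). The knockout allele was a CRISPR/Cas9 deletion that takes out exon 1 of the long noncoding RNA gene Gm15551 in every cell, and all animals were fed a chow diet. Each mouse gave all 3 tissues, so that the 18 libraries form 6 groups of 3.

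Mesothelial cells line the peritoneal cavity and secrete lubricating mucins and glycoproteins. They arise from mesoderm but build an epithelium, with keratin filaments and a cell surface that carries mesothelin and uroplakins. The epididymal pad is an intraperitoneal depot with a mesothelial surface, while the inguinal and interscapular pads lie under the skin and have none. Epithelia of glands and ducts, such as mammary gland or epididymis, contain the same simple keratins together with the adhesion molecule Epcam, which mesothelium normally lacks. In bulk tissue, fewer cells of a type and less RNA per cell cannot be told apart.

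The promoters of 3 of the mesothelial genes are shown because these genes span the range seen across the depots: Upk3b and Bnc1 were found in eWAT and at or near 0 elsewhere, whereas Lrrn4 was found in all 3 tissues. Each is the 250 bases before the RefSeq start (GRCm38.p6), written 5′ to 3′ along the gene's strand, with Upk3b at chr5:136038246-136038495 (plus strand), Lrrn4 at chr2:132880863-132881112 (minus) and Bnc1 at chr7:81992300-81992549 (minus). Capitals mark GGAATG, the core letters of the site bound by TEAD factors, in Upk3b and Lrrn4, and GGGCGG, the GC box, in Bnc1, on either strand.
Upk3b: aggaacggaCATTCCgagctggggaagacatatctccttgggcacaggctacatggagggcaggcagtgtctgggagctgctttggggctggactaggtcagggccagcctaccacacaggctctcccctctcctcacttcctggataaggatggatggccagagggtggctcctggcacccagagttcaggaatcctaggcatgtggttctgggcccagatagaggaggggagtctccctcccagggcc
Lrrn4: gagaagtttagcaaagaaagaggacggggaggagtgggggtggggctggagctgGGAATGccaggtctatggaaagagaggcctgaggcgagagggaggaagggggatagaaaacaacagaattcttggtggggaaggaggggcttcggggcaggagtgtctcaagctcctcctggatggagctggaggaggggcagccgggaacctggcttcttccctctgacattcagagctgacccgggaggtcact
Bnc1: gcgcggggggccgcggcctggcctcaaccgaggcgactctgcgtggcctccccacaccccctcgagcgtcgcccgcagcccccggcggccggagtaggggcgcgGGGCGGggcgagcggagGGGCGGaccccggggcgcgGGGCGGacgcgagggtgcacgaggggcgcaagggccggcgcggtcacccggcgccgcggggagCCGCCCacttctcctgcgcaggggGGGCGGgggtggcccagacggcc
GGAATG or its reverse complement stood 241 bases before the start in Upk3b and 196 bases before it in Lrrn4, and 12.6% of the 32851 promoters of the same length held it. Bnc1 held 5 GC boxes, and 32.7% of all promoters held at least 1. The matched promoters of Muc16, Krt8 and Krt18, not shown, held neither GGAATG nor GGGCGG on either strand. The letters TATAAA, present in 12.4% of promoters, were in none of the 6 members' promoters that could be matched. The Bnc1 window had a GC content of 83.6%, against 60.8% in Upk3b, 59.2% in Lrrn4 and a median of 52.4% over all promoters. A match is a run of letters and not a shown binding site.

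The libraries held between 14997901 and 34389586 counts. Values are given as CPM, the count divided by the TMM-scaled size of its library, and 3 counts, the most that a count of 0 allows, corresponded to 0.0726 to 0.234 CPM. Limits and intervals given here cover counting error only. They leave out the spread between mice, and reads copied by PCR are not independent molecules. Gm15551 had 40 to 316 counts in the 9 wild type libraries and 0 to 4 in the 9 knockout libraries. The summed level of 6 brown adipocyte genes was 6896 to 12280 CPM in iBAT, 26.9 to 314 CPM in iWAT and 7.16 to 21.9 CPM in eWAT.

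Before the members are described, 5 libraries have to be named, because they held Epcam and other epithelial transcripts. Epcam reached 373 to 3695 counts in eWAT wt replicate 1, eWAT ko replicate 3, iWAT ko replicate 2, iWAT wt replicate 3 and iWAT ko replicate 3, and 0 to 4 counts in the other 13 libraries. In eWAT ko replicate 3, the 11 epididymis genes summed to 5194 CPM, and 42.8 CPM was found in eWAT wt replicate 1. The other eWAT libraries had 0.214 to 2.76 CPM of them. Testis transcripts, from a list of 10, did not follow Epcam in the same way. Their sum was 9.48 CPM in eWAT wt replicate 2, which is not among the 5, and 7.41 CPM in wt replicate 1. It was 123 CPM in ko replicate 3, and 1.23 to 2.27 CPM in wt replicate 3 and ko replicates 1 and 2. Whether the testis transcripts bear on the member levels was not tested. The 8 genes of general epithelium summed to 913 CPM in eWAT ko replicate 3, 114 CPM in eWAT wt replicate 1 and 3.94 to 6.33 CPM in the remaining eWAT libraries. In iWAT this list summed to 39.5 to 105 CPM in the 3 libraries with Epcam and 1.86 to 3.53 CPM in those without. Krt5, a keratin of stratified epithelium, had 79 to 189 counts in these 3 and 0 in the other iWAT libraries. Which epithelium these transcripts came from was not tested. Lymph node genes were also high in iWAT wt replicate 3 (1151 CPM) and iWAT ko replicate 2 (437 CPM), and skeletal muscle genes in iWAT ko replicate 1 (4758 CPM). The member comparisons were therefore also computed without these 5, a choice made after seeing the data. These 5 were also the highest of their tissue for Krt8, Krt18 and Krt19. The keratin calls made without them thus follow in part from that choice and are a description only.

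The mesothelial genes were higher in eWAT than in iWAT. All 6 passed the test (edgeR, Benjamini-Hochberg adjusted p below 0.05 over the 18728 genes tested), all 6 were higher in eWAT, and in none of them did the 6 eWAT libraries overlap the 6 iWAT libraries. Over all genes, 4.5% passed with a higher level in eWAT, and 2.33% had groups that did not overlap in this direction. The median log2 fold change of the 6 genes was 5.62, against -0.01 over all genes tested. Without the 5 libraries with Epcam the fitted median was 9.12, and 4.98 with the 3 genes that had no iWAT count set at their lower bound. With wild type libraries only, Lrrn4 and Muc16 no longer passed, although their fold changes were not smaller (2.85, edgeR adjusted p = 0.0519, and 3.60, adjusted p = 0.228). All 9 members passed the filter on low counts, but Upk3b, Upk1b and Bnc1 reached its level of 0.477 CPM in eWAT libraries only.

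**Figure D1:**
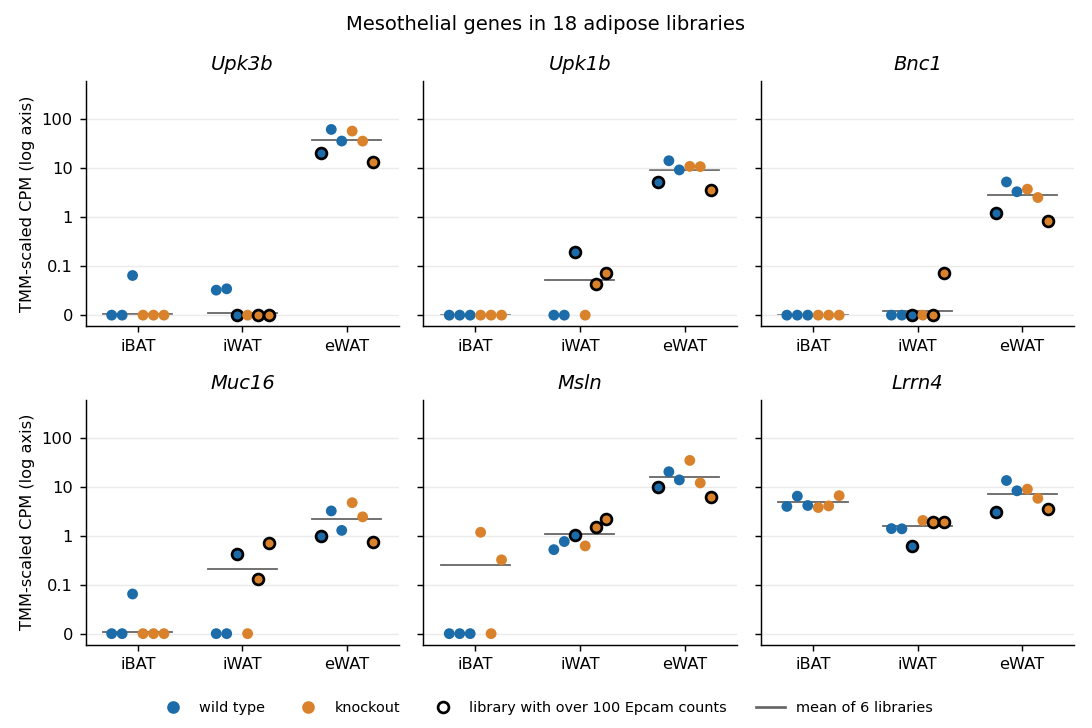
TMM-scaled CPM (log axis, with values of 0 drawn at the bottom tick) of the 6 mesothelial genes in each of the 18 libraries, by tissue. Points are libraries, colours give the genotype, black rings mark the 5 libraries with over 100 Epcam counts, and lines are means of 6 libraries. In every panel all 6 eWAT points lie above the iWAT points, and the ringed eWAT points are the lowest in eWAT.

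Upk3b encodes a uroplakin, a membrane protein of the urothelial plaque that is also a surface marker of mesothelium (ENSMUSG00000042985.7, chr5:136038496-136046487, plus strand, 6 exons). Its level in eWAT was 20.03, 61.7 and 35.8 CPM in wild type replicates 1 to 3 and 57.1, 35.7 and 13.1 CPM in knockout replicates 1 to 3, the order kept for the other members. In iWAT it had 1 count in each of 2 libraries and 0 in the others, and in iBAT 1 count in a single library. Hence the eWAT libraries held 265 to 1474 counts of a transcript that was at or under the floor in all 12 libraries of the other tissues. The ratio of scaled counts between eWAT and iWAT was 3106 (95% counting interval 859 to 25654, edgeR adjusted p = 1.57e-08). It was 1953 (540.4 to 16134) with the 5 libraries left out, and both ratios rested on 2 iWAT counts.

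Upk1b, a tetraspanin that pairs with the uroplakins of its family in the membrane (ENSMUSG00000049436.5, chr16:38773184-38800328, minus strand), was at 5.22, 14.2 and 9.21 CPM in the wild type and 10.9, 10.7 and 3.60 CPM in the knockout eWAT libraries. In iWAT it had 6 counts in wt replicate 3, 2 in ko replicate 3 and 1 in ko replicate 2, which are the 3 iWAT libraries with Epcam, and 0 in the other 3. No count fell on it in iBAT. With all libraries the ratio of eWAT to iWAT was 171 (89.8 to 375, adjusted p = 1.40e-04). Once the 5 libraries were left out, iWAT was at 0 and eWAT was at least 107-fold higher, against a floor of 3 counts per library.

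Bnc1 encodes the zinc finger protein basonuclin 1 (ENSMUSG00000025105.10 in the deposited table, with the position of the earlier version ENSMUSG00000025105.9 in GENCODE M21, chr7:81966672-81992292, minus strand). It was at 1.23, 5.22 and 3.30 CPM in wild type mice and 3.72, 2.52 and 0.839 CPM in knockout eWAT. Its 2 counts in iWAT were both in ko replicate 3, and it had none in iBAT. The ratio of eWAT to iWAT was 231 (63.5 to 1912, adjusted p = 2.37e-04), and with the 5 libraries left out eWAT was at least 35.02-fold higher. Against iBAT eWAT was at least 13.7-fold higher. An exon of Bnc1 overlaps the pseudogene 4833418N17Rik on the opposite strand, and the reads of both cannot be told apart if they were counted without regard to strand.

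Msln encodes mesothelin, a glycoprotein anchored to the mesothelial cell surface (ENSMUSG00000063011.7, chr17:25748613-25754378, minus strand). Its eWAT levels were 9.69, 20.2 and 13.7 CPM in wild type mice and 34.3, 11.9 and 6.02 CPM in knockout libraries. The iWAT libraries were lower but not empty, with a lowest level of 0.518, a median of 0.889 and a highest of 2.19 CPM, so that Msln differed from the uroplakins in being measured in every iWAT library. The log2 fold change of eWAT against iWAT was 3.97 ± 0.71 (SE, n = 6 and 6, edgeR adjusted p = 0.00196). With the 5 libraries left out, it was 4.82 ± 0.72 (adjusted p = 0.00111).

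Muc16 encodes a very large membrane mucin, the carrier of the CA125 antigen (ENSMUSG00000109564.1, chr9:18495455-18674530, minus strand, longest coding transcript 25437 bases). It was low in eWAT, at 0.964, 3.19 and 1.28 CPM in wild type mice and 4.71, 2.42 and 0.740 CPM in knockout libraries. In iWAT it had 19 counts in ko replicate 3, 13 in wt replicate 3 and 3 in ko replicate 2, the libraries with Epcam, and 0 in the other 3. The lowest eWAT library therefore lay just above the highest iWAT library, at 0.695 CPM. The log2 fold change was 3.40 ± 0.86 (edgeR adjusted p = 0.0200). This call rested on single libraries, since the adjusted p was 0.0578 without iWAT ko replicate 2, 0.0541 without eWAT ko replicate 1 and 0.0504 without eWAT wt replicate 2. In the libraries without Epcam, iWAT was at 0 and eWAT was at least 27.5-fold higher.

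Lrrn4 stood apart from the other mesothelial genes. It encodes a leucine-rich repeat protein of the neuronal Lrrn family (ENSMUSG00000043110.2, chr2:132868305-132880891, minus strand), and it was the only mesothelial gene measured at 19 or more counts in every library. The eWAT levels were 3.02, 13.4 and 8.22 CPM in wild type mice and 8.90, 5.78 and 3.55 CPM in knockout libraries. In iBAT the lowest was 3.75, the median 4.09 and the highest 6.55 CPM, and in iWAT 0.625, 1.65 and 2.04 CPM. Thus iBAT lay inside the range of eWAT, and iWAT lay below both. The log2 fold change was 2.23 ± 0.37 for eWAT against iWAT (edgeR adjusted p = 0.00104) and 0.58 ± 0.35 for eWAT against iBAT (adjusted p = 0.174). Without the 5 libraries the latter was 0.90 ± 0.25 (adjusted p = 0.00661), and the groups still overlapped.

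Against iBAT, 8 of the 9 members were higher in eWAT, with Lrrn4 as the exception. That comparison separates many genes, since 30.2% of all genes passed with a higher level in eWAT. With the 5 libraries left out, all 9 were higher in eWAT, where 30.8% of all genes were. With wild type libraries only, Krt8 no longer passed (edgeR adjusted p = 0.0744) and 7 members did, and DESeq2 also called 7, with no adjusted p given for Krt8. Msln had 15 counts in iBAT ko replicate 1, 5 in ko replicate 3 and 0 in the other 4 iBAT libraries, and its log2 fold change of eWAT against iBAT was 6.36 ± 0.85 (edgeR adjusted p = 8.10e-06), and 6.49 ± 0.65 without the 5. Upk1b was at least 44.0-fold higher in eWAT than the floor in iBAT, and at least 55.1-fold without the 5.

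Between iWAT and iBAT, 6 members passed, 5 of them higher in iWAT and Lrrn4 lower, where 54.3% of all genes passed in either direction. With wild type libraries only, 3 members passed, 1 of them a keratin. Lrrn4 was lower in iWAT by a log2 fold change of -1.65 ± 0.36 (edgeR adjusted p = 0.00107) with no overlap of the groups, as for 17.7% of genes lower in iWAT. Msln was higher in iWAT by 2.38 ± 0.79 on the log2 scale (adjusted p = 0.0176), although the groups overlapped, by 3.94 without iBAT ko replicate 1, and by 1.67 ± 0.87 without the 5 libraries with Epcam, where it no longer passed (adjusted p = 0.130). Muc16 passed with an edgeR adjusted p of 0.0392, which became 0.0789 with the mouse as a block and 0.0682 to 0.112 when any of 7 single libraries was left out, namely iBAT wt replicates 1 and 2, iBAT ko replicates 1 to 3 and iWAT replicates wt 3 and ko 3. Its counts in iWAT all came from the libraries with Epcam. The 3 keratins were higher in iWAT, Krt19 by 7.04 ± 1.23 (adjusted p = 1.43e-04), Krt18 by 8.14 ± 2.47 (adjusted p = 0.0106) and Krt8 with an adjusted p of 0.0104 that became 0.0527 without iBAT ko replicate 2. Krt18 was at 1.33 ± 0.85 without the 5 libraries (edgeR adjusted p = 0.215), and Krt8 then had 2 counts in iWAT and 1 in iBAT (adjusted p = 0.681). When the 5 libraries with Epcam were left out, 2 members passed, where 49.9% of all genes did. These were Lrrn4, lower in iWAT by -1.59 ± 0.31 (adjusted p = 7.19e-04), and Krt19, higher in iWAT.

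The keratins behaved otherwise. Krt8 and Krt18 are the obligate pair of simple epithelial intermediate filaments, a type II and a type I keratin whose genes lie 23697 bases apart on chromosome 15 (Krt8, chr15:101996698-102004482, minus strand; Krt18, chr15:102028180-102032027, plus strand). Krt19, the smallest type I keratin, lies on chromosome 11 (chr11:100140810-100148665, minus strand). None of the 3 passed between eWAT and iWAT with all libraries, and their high values lay in the libraries with Epcam.

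Krt8 was at 67.5, 2.95 and 2.27 CPM in the wild type and 3.81, 1.16 and 322 CPM in the knockout eWAT libraries. In iWAT it was at 24.6 CPM in ko replicate 2, 16.1 CPM in wt replicate 3 and 30.1 CPM in ko replicate 3, and had at most 2 counts in the other 3 libraries. The 5 high libraries were those with Epcam in both depots. An exon of Krt8 overlaps the noncoding RNA gene Gm36026 on the opposite strand, whose reads could be counted with it if strand was not used. Its log2 fold change of eWAT against iWAT was 2.38 ± 1.35 (edgeR adjusted p = 0.286), and leaving out single libraries moved it to between 0.42 and 3.92 with no call gained. It was 0.42 without eWAT ko replicate 3, 1.23 without eWAT wt replicate 1 and 3.92 without iWAT wt replicate 3. Without the 5 libraries it passed (adjusted p = 3.05e-04), with a ratio of 99.1 that rested on 2 iWAT counts (27.1 to 823).

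Krt18 had 35.0, 1.21 and 0.788 CPM in wild type mice and 1.80, 1.16 and 301 CPM in knockout eWAT. In iWAT the libraries with Epcam had 15.9 to 41.9 CPM and the others 1 to 6 counts. The log2 fold change was 1.75 ± 1.35 (edgeR adjusted p = 0.450), and it became -0.50 when eWAT ko replicate 3 alone was left out. Without all 5 libraries it was 3.26 ± 0.67 (adjusted p = 0.00852).

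Krt19 varied least of the keratins. Its eWAT levels were 25.1, 12.1 and 5.71 CPM in wild type mice and 11.3, 8.37 and 52.8 CPM in knockout libraries, and in iWAT 1.07 to 1.73 CPM without and 22.5 to 50.4 CPM with Epcam. All iWAT libraries thus held Krt19, with 33 to 45 counts even where Krt8 had at most 2. The log2 fold change was 0.23 ± 0.81 with all libraries (edgeR adjusted p = 0.893) and 2.74 ± 0.46 without the 5 (adjusted p = 0.00255). Against iBAT, the 3 iWAT libraries without Epcam were higher by 3.58 ± 0.57 (adjusted p = 1.48e-04).

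**Figure D2:**
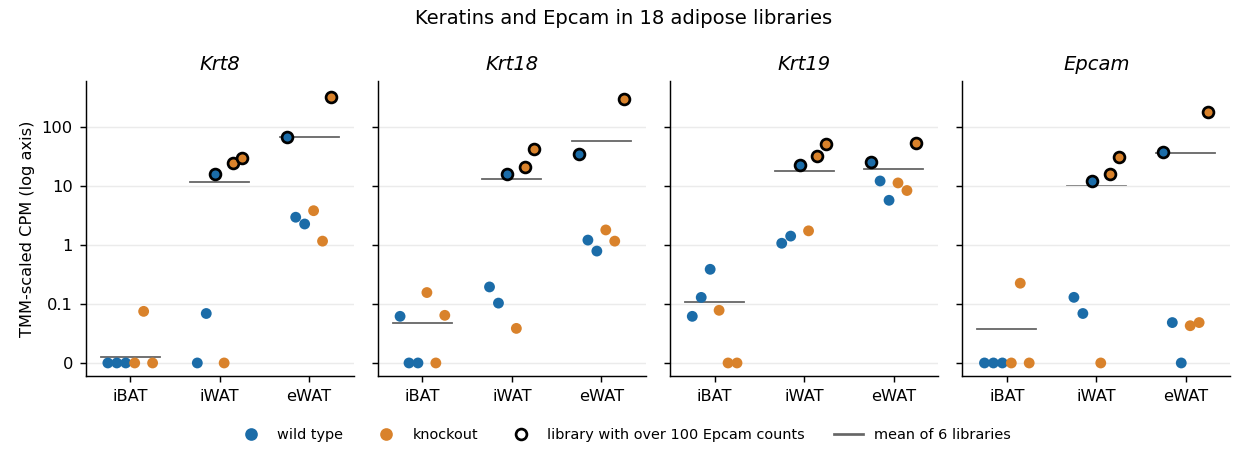
TMM-scaled CPM (log axis, with values of 0 drawn at the bottom tick) of Krt8, Krt18, Krt19 and Epcam in each library by tissue, with the genotype as colour, black rings around the 5 libraries with over 100 Epcam counts and lines at the means of 6 libraries. The ringed libraries are the highest of their tissue for all 3 keratins, and the other eWAT libraries hold 1.16 to 3.81 CPM of Krt8 with at most 2 Epcam counts.

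In the 4 eWAT libraries with at most 2 Epcam counts, the keratins were measured beside the mesothelial genes, and all 9 members were then higher in eWAT than in the 3 iWAT libraries without Epcam, where 3.03% of all genes were called higher in eWAT. The proportion of Krt19 to Krt8 differed from that of the libraries with Epcam. Per length, Krt19 was 3.13 to 8.96 times as abundant as Krt8 in these 4 libraries, 0.461 times in eWAT wt replicate 1, 0.204 times in eWAT ko replicate 3 and 1.61 to 2.08 times in the 3 iWAT libraries with Epcam. Krt18 per Krt8 did not separate them, with 0.474 to 1.36 in the 4 libraries, 0.706 and 1.27 in eWAT wt replicate 1 and ko replicate 3, and 1.18 to 1.90 in the 3 iWAT libraries. The part that other epithelia had in the keratin levels was not tested. The libraries with Epcam were the highest of their tissue for all 3 keratins, so leaving them out bears directly on the keratin calls.

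**Figure D3:**
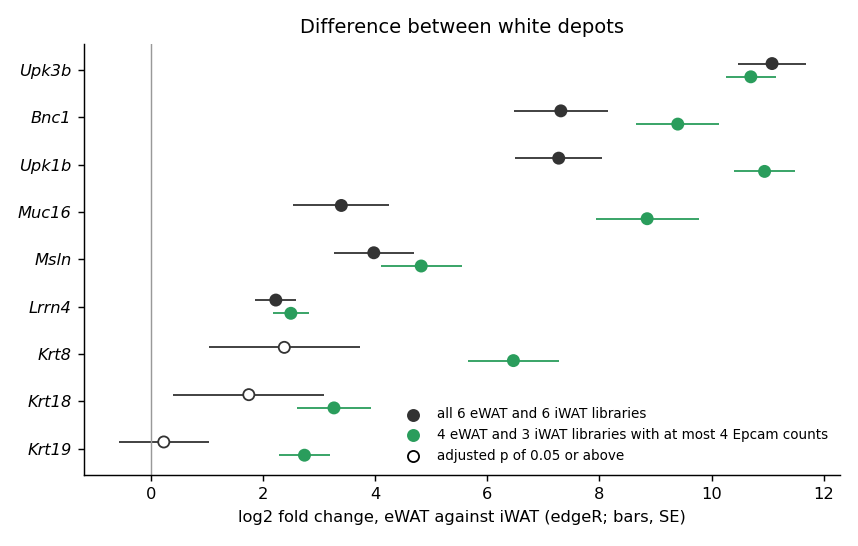
Log2 fold change of eWAT against iWAT (edgeR, bars are SE) for each member with all 6 eWAT and 6 iWAT libraries (black) and with the 4 eWAT and 3 iWAT libraries holding at most 4 Epcam counts (green), where open points have an adjusted p of 0.05 or above. The 3 keratins are open with all libraries and filled without the 5; the green points of Upk1b, Muc16 and Krt8, and both points of Bnc1 and Upk3b, depend on the prior count because iWAT held 0 to 2 counts in all.

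Levels can be compared between genes when divided by the length of the longest coding transcript. Over the 4 eWAT libraries without Epcam, Upk3b led with 13.5 ± 3.91 CPM per kilobase (SD, n = 4), followed by Msln with 9.25 ± 4.69, and these spreads overlapped. Krt19 and Upk1b came next with 5.94 ± 1.85 and 5.94 ± 1.10, whose spreads overlapped that of Msln. Lrrn4 had 2.44 ± 0.850, Krt8 1.30 ± 0.571, Krt18 0.862 ± 0.290 and Bnc1 0.794 ± 0.245, where each spread overlapped the next. Muc16 was lowest with 0.114 ± 0.0565. Over all 6 eWAT libraries Krt18 (39.5 ± 83.8) and Krt8 (34.02 ± 65.3) had the highest means, both with an SD above the mean.

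Within eWAT all 6 mesothelial genes had their lowest levels in the libraries with Epcam, eWAT wt replicate 1 and ko replicate 3. Against the mean of the other 4 eWAT libraries they were at 0.333 to 0.484 of the level in wt replicate 1 and at 0.227 to 0.392 in ko replicate 3. Krt8 was 26.5 and 126 times as high in these libraries, Krt18 28.2 and 243 times and Krt19 2.68 and 5.64 times. Adipoq, the adipocyte hormone adiponectin, was at 0.591 and 0.446, and Plin1, the lipid droplet protein perilipin 1, at 0.767 and 0.367. The mesothelial transcription factor gene Wt1 was at 0.906 in wt replicate 1 and 0.414 in ko replicate 3, and Tcf21, a factor of visceral mesenchyme, at 1.71 and 1.22. All of these are shares of a total that also held the epithelial transcripts named above, and the part of these in the lower values was not tested.

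**Figure D4:**
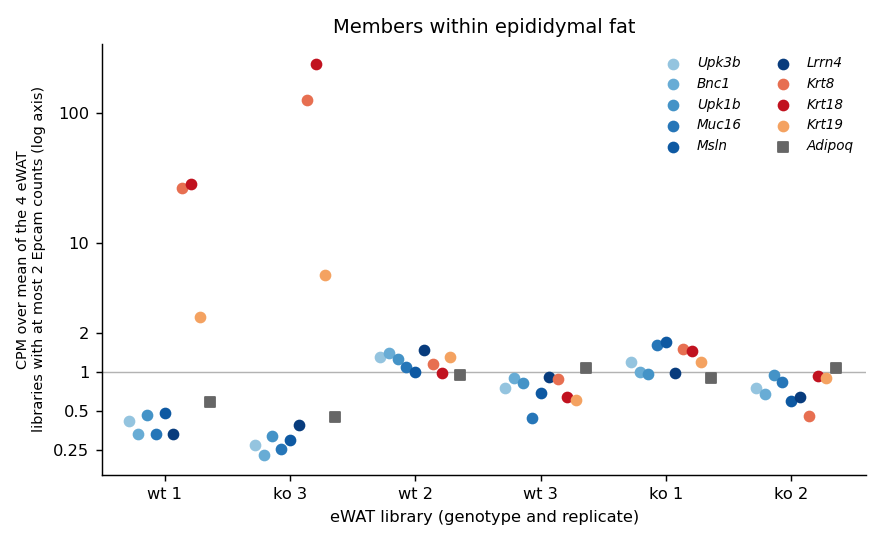
CPM of each member and of Adipoq in the 6 eWAT libraries, divided by its mean over the 4 libraries with at most 2 Epcam counts (log axis), by library. In wt replicate 1 and ko replicate 3 the mesothelial genes (blue) lie at 0.227 to 0.484 and the keratins (red and orange) at 2.68 to 243.

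In the 4 libraries without Epcam, Upk3b differed by 1.73 times and Upk1b by 1.54 times between the lowest and the highest library, while Msln differed by 2.88 times and Muc16 by 3.68 times. Msln and Muc16 were highest in ko replicate 1, and Upk3b, Upk1b, Bnc1 and Lrrn4 in wt replicate 2.

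The tissue label was also read against other genes known from mesothelium. Of 14 listed, 12 were tested, and 6 were higher in eWAT than in iWAT. Wt1, the factor that marks mesothelium and its derivatives, had the largest difference of them with 7.49 ± 0.50 on the log2 scale, from at most 3 counts in iWAT to 102 or more in eWAT. Nkain4 followed with 4.27 ± 0.43, the Wnt agonist gene Rspo1 with 3.53 ± 0.40 and Aldh1a2, which makes retinoic acid, with 2.46 ± 0.38. Pkhd1l1 (2.39 ± 0.51) and the neuronal glycoprotein gene Gpm6a (1.51 ± 0.36) also passed. Over all genes, 4.5% passed with a higher level in eWAT, and 3.03% without the 5 libraries with Epcam. Anxa8 was lower in eWAT by -2.22 ± 0.66 (edgeR adjusted p = 0.0426). That call was lost without the 5 libraries with Epcam (-1.09 ± 0.84, adjusted p = 0.535), where 7 genes were higher and 0 lower, the added gene being the protease inhibitor gene Slpi (8.48 ± 0.59, adjusted p = 4.44e-06). With all libraries, Pdpn, Dmkn, Cldn15, Slpi and Lrrn4cl did not pass, with log2 fold changes of -0.59 to 2.36. Calb2, the gene of calretinin and a widely used marker of mesothelium, had 0 counts in all 18 libraries.

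Of 7 listed regulators of mesothelium and visceral mesenchyme, 6 were tested and 5 were higher in eWAT than in iWAT: Wt1, Tcf21 (7.19 ± 0.60), Hand2 (2.44 ± 0.65), Bnc2 (1.43 ± 0.28) and Gata6 (0.88 ± 0.25). Tbx18 had a log2 fold change of -0.54 ± 0.24 (edgeR adjusted p = 0.178). Without the 5 libraries 4 were higher, and Hand2 no longer passed (3.54 ± 1.08, adjusted p = 0.0951). The shares of all genes higher in eWAT were 4.5% with all libraries and 3.03% without the 5. Bnc2 is the paralog of Bnc1. In contrast to Bnc1, it had 56 or more counts in every iWAT library.

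Paralogs and neighbours of the members did not share their pattern as a group. Among all 18728 genes tested, 843 were higher in eWAT than in iWAT and 1068 were lower. Of 7 paralogs tested, 2 were higher in eWAT than in iWAT, Bnc2 and Lrrn1 (2.19 ± 0.38), and 2 were lower, Lrrn3 (-1.82 ± 0.29) and Muc1 (-1.26 ± 0.34). Leaving out the 5 libraries gave 3 higher and 2 lower, as Krt7 was then higher (3.61 ± 0.56, edgeR adjusted p = 0.00138), Krt20 was lower (-5.16 ± 0.91, adjusted p = 0.0115) and Muc1 no longer passed (adjusted p = 0.395). Mslnl, which lies 282 bases from Msln, reached at most 0.246 CPM in any library, and Upk3bl, 8004 bases from Upk3b, at most 0.395 CPM. The uroplakins of the urothelium were scarce as well. Upk2 and Upk3a stayed at or below 0.622 and 2.30 CPM, and Upk1a was at 20.2 CPM in eWAT ko replicate 3 and at most 1.35 CPM elsewhere.

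The genes whose level across the 18 libraries was most like the mean of the 6 mesothelial genes were ranked by Pearson correlation of log2(CPM + 0.5) over 15185 candidates. Among the 10 highest were Crb2 (0.98), Wt1 (0.98), Tmem151a (0.98), Cadps (0.97), Alx1 (0.97), Nkain4 (0.97), Gata5 (0.96), Igfbp2 (0.95) and Nol6 (0.95). The step between eWAT and the other tissues, which these points share, enters into each of these values. Over the 6 eWAT libraries alone, the correlation was 0.997 for Crb2, 0.971 for Tmem151a and 0.933 for Gata5. For the other genes named it was lower, from 0.527 (Alx1) to 0.796 (Igfbp2). Crb2, a cell polarity gene, was at 1.93 ± 0.840 CPM in eWAT (SD, n = 6), with at most 5 counts in any iWAT or iBAT library.

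The knockout of Gm15551 was compared with the wild type in all tissues together and in eWAT alone. None of the 9 members passed in either test (edgeR), none had an unadjusted p under 0.05, and DESeq2 called none. Of all genes tested, 0.00534% passed in each comparison, which was Gm15551 itself. In eWAT its adjusted p was 0.0318, and no gene was called there when any of the 6 eWAT libraries was left out. In eWAT the genotypes overlapped for all 9 members, while 5.25% of genes did not overlap. Msln averaged 14.5 ± 5.29 CPM in the wild type mice and 17.4 ± 14.9 CPM in the knockout mice (SD, n = 3 and 3), a log2 fold change of 0.26 ± 0.79, and Upk3b at 39.2 ± 21.0 and 35.3 ± 22 CPM, a log2 fold change of -0.15 ± 0.54. Both changed sign with single libraries left out: Msln was at -0.70 without ko replicate 1, and Upk3b at 0.34 without wt replicate 2 and 0.24 without ko replicate 3.

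Krt18 had the largest genotype difference of the members in eWAT, with a log2 fold change of 3.03 ± 2.08, followed by Krt8 with 2.16 ± 2.15 and Krt19 with 0.75 ± 1.14. These rested on the libraries with Epcam. Without the 5, they were 0.55 ± 0.64, -0.088 ± 0.69 and 0.13 ± 0.46, and without ko replicate 3 alone -3.07, -3.31 and -0.55. No member passed for an interaction of genotype with tissue (edgeR and DESeq2, 0% of all genes with edgeR), and 1 of 9, Msln, had an unadjusted p under 0.05, at 0.0405, as did 264 of the 18728 genes.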

How the data were processed

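The authors cleaned the paired reads with cutadapt, ran salmon on GENCODE M22 transcripts (GRCm38), with or without RNAcentral added, and deposited unnormalised estimated counts for each gene. Whether strand was used, and how transcripts were joined to genes, is not given in the sources used here. Salmon divides reads shared with near-identical copies, such as pseudogenes of Krt8, by a model. The whole table was analysed in R 4.3.3 with edgeR 4.0.16 (filterByExpr, TMM, quasi-likelihood test, Benjamini-Hochberg adjustment over all genes tested). Tissue and genotype entered additively for the tissue contrasts and the genotype across tissues, and 1 mean per group was fitted for eWAT genotype and interaction. SE is the log2 fold change over the root of F, and counting intervals are exact at 95%. DESeq2 1.42.0 was an alternative, and the fit was checked on simulated data.

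Members, lists, motifs and omitted libraries were chosen with earlier results of these data known. The text names all members, genes of the lists, and the 10 genes most like the mesothelial mean, of which 1 is not reported here. Positions and lengths come from GENCODE M21 (GRCm38) and promoters from RefSeq (GRCm38.p6), with 6 of 9 members matched and Msln, Upk1b and Krt19 missing. Libraries of a mouse are paired by its identifier in the labels, and their deviations correlated at -0.15 to 0.34 over 18 pairs, 7 of them over 0.1. No pair of replicates was a library deposited again (lowest chi-square per degree of freedom 18.1).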

Additional observations from a re-analysis of the deposited data

Results flagged for a closer look

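Lrrn4 in iWAT was lowest in wt replicate 3, at 0.625 CPM, and on the scale of log2(CPM + 0.5) its gap to the nearest of the other 5 libraries was 0.629 of the range of the group, just over the limit of 0.625 for 6 samples. On the CPM scale the gap was 0.531 of the range, under that limit. The other iWAT libraries lay at 1.38 to 2.04 CPM. This library also held 1151 CPM of lymph node genes and the lowest summed level of adipocyte genes in iWAT, 8290 CPM, and the part of either in the Lrrn4 value was not tested. Among 15 groups examined this was the only one past the limit, where chance flags about 0.75.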

How the results depend on the processing

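DESeq2 size factors in place of TMM, no filter, and a mean count filter of 10 changed no count of members called by over 1.5 times. With wild type libraries only, 3 members, 1 of them a keratin, passed between iWAT and iBAT, 7 passed between eWAT and iBAT, 4 members passed between eWAT and iWAT, Lrrn4 and Muc16 no longer passing there (2.85 and 3.60 on the log2 scale, edgeR adjusted p = 0.0519 and 0.228), and 247 genes of the whole table were called between eWAT and iWAT instead of 1911, 6574 between eWAT and iBAT instead of 10220 and 6595 between iWAT and iBAT instead of 10164. Without the 5 libraries with Epcam, 3 keratins passed between eWAT and iWAT, 2 members, 1 of them a keratin, passed between iWAT and iBAT, Muc16 moved there to -1.47, and Krt8 for ko against wt in eWAT to -0.088. That Muc16 value rested on 1 count in iBAT and 0 in iWAT and gives no direction. Leaving out each library in turn gave 5 to 6 members between eWAT and iWAT, 8 between eWAT and iBAT, 4 (without iBAT ko replicate 2) to 7 (without iWAT wt replicate 1) between iWAT and iBAT, and 0 for genotype. The log2 fold change of eWAT against iWAT then ran from 0.42 to 3.92 for Krt8, -0.50 to 3.30 for Krt18 and -0.31 to 0.86 for Krt19. That of ko against wt in eWAT ran from -0.70 to 0.67 for Msln, -0.69 to 0.34 for Upk3b, -3.31 to 5.37 for Krt8, -3.07 to 6.64 for Krt18 and -0.55 to 1.42 for Krt19. Between eWAT and iWAT, 1080 to 2117 genes were called. DESeq2 called 4 genes for genotype across tissues and 13 in eWAT, none of them a member, where edgeR called 1 in each; with edgeR, the replicate block gave 3 and 0, a fit of eWAT libraries alone 0, each fit without 1 eWAT library 0 in eWAT, and leaving out the 5 libraries with Epcam 2 across tissues and 43 for the interaction instead of 0. For these changes the cause was not tested, beyond the fewer libraries in each fit. Counts under 20, as for Muc16 in iWAT, limit the precision of its fold change.

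With the mouse as a replicate block, 6, 8 and 5 members passed between eWAT and iWAT, eWAT and iBAT, and iWAT and iBAT, and Muc16 in the last was the call that changed. Wild type and knockout mice share only a replicate number. Their deviations correlated at -0.56 to 0.61 over 9 pairs, 4 of them over 0.1. With that number as a replicate block, 0 members passed for genotype, and the log2 fold changes of Krt8, Krt18 and Krt19 in eWAT were -1.76, -0.80 and -0.30.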
